A study of Homo sapiens with 21 samples.

Results

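The distal 22q genes are 57 protein-coding genes of human chromosome 22 that lie between positions 40044834 and 50628152 of GRCh38, from TNRC6B to ARSA. They were taken by name from a list of genes from about 40 Mb on, and all 57 were found in each of the 3 deposited tables, among 17756 genes in the chromosome 3 mRNA table, 20036 in the chromosome 8 mRNA table and 19854 in the table of ribosome-protected fragments (RPF, short pieces of mRNA covered by ribosomes during translation). The stretch was taken as noticed in the chromosome 3 mRNA libraries, though which values led to its choice is not recorded. The members' mRNA changes against WT are therefore described with no test, and tests are given for other libraries and other contrasts. Whether RPF values also led to the choice is not known, so RPF calls of members are not counted as independent of it.

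Neighbouring genes of a chromosome arm seldom form 1 pathway, and the distal part of 22q is mixed in function. It holds XRCC6, which encodes the Ku70 subunit that binds broken DNA ends, the histone acetyltransferase gene EP300 and RBX1, the RING subunit of cullin ubiquitin ligases. It also holds the mitochondrial outer membrane genes TSPO and SAMM50, enzymes of purine, lipid and glycan metabolism, and adhesion genes such as PARVB and FBLN1. Many of the products work as subunits of complexes whose other subunits are encoded on other chromosomes.

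The study compared human lung epithelial cells that had lost or gained a chromosome arm with WT cells, in 7 groups of 3 biological replicates. For the chromosome 3 system, mRNA came from 3p loss, 3q gain and Chr3 WT cells, and RPF came from 3p loss cells and cells labelled 3p WT, after 5 min of cycloheximide. For the chromosome 8 system, mRNA came from 8p loss and 8p WT cells. No group is labelled with a change of chromosome 22, and DNA copy number was not analysed here. The sources used here do not state whether each altered line is a single clone. The libraries held KRT5, a keratin of basal airway cells, at 1762 to 14158 TPM (transcript abundance scaled for length and library size), and the epithelial gene EPCAM at 46.6 to 205 TPM, while the markers of differentiated lung cells SFTPC, SCGB1A1 and FOXJ1 stayed at or under 0.675 TPM. Basal markers differed between the groups compared. KRT14, another basal keratin, read 611 to 1862 TPM in Chr3 WT, 60.6 to 336 in 3p loss and 10.5 to 81.8 in 3q gain. KRT5 read 3379 to 7509 TPM in Chr3 WT, 8468 to 14158 in 3p loss and 5288 to 8562 in 3q gain. RPF of both keratins was lower in 3p loss than in 3p WT. The basal marker TP63 ran from 54.1 to 147 TPM over all mRNA libraries. Its 3p loss and 3q gain libraries overlapped Chr3 WT. In the chromosome 8 system it read 142.6 to 147.0 TPM in 8p WT and 56.1 to 60.6 in 8p loss. KRT5, KRT14 and EPCAM were also lower in 8p loss than in 8p WT, with no overlap. RPF of EPCAM was higher in 3p loss than in 3p WT. RPF totals ran from 4622326 to 13607875 counts. RPF replicates 1 and 2 of each group differed by little more than counting error, with a mean chi-square per gene of 1.36 in WT and 1.40 in 3p loss, against 7.36 to 13.2 for the other pairs. They were kept as separate libraries, so RPF standard errors and p-values may be too small. The count of members called and the CENPM result with both summed are given below.

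Across the stretch, mRNA was lower in 3p loss and in 3q gain cells than in Chr3 WT cells. On the scale log2(TPM + 1), the median change of the 57 members was -0.86 in 3p loss (quartiles -1.03 and -0.68), or 0.550-fold, and -0.90 in 3q gain (quartiles -1.03 and -0.75), or 0.535-fold. The median over all 11225 tested genes was 0.01 and 0.02. In 3p loss 53 members were below 0 and in 3q gain 56 were. The 3 libraries of 3p loss lay below all 3 of WT for 49 members, where 16.9% of all tested genes did so, and the same count in 3q gain was 49, where 14.5% did so. FBLN1 alone had its 3p loss libraries above all 3 of WT, where 16.8% of all genes did so. Both comparisons use the same WT libraries, and both are values on which the stretch was noticed, so nothing is read from these counts. For scale, the 321 tested genes of 3p, the arm named in the 3p loss label, had a median of -0.89 in the same 3p loss fit. In bulk libraries like these, fewer cells that express a gene and less RNA per cell cannot be told apart.

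In the chromosome 3 system the libraries of each group stood on the same side. As the median deviation of the members from each gene's mean in its table, less that of genes off chromosomes 3, 8 and 22, the Chr3 WT libraries read 0.61, 0.66 and 0.51 (log2). Libraries of 3p loss read -0.21, -0.29 and -0.27, and libraries of 3q gain read -0.34, -0.30 and -0.37. The RPF libraries, made from other preparations, read 0.45, 0.49 and 0.61 in 3p WT and -0.64, -0.55 and -0.50 in 3p loss. No altered library of the chromosome 3 system overlapped a WT library. In the chromosome 8 system the 6 libraries lay between -0.05 and 0.06. Genes of 22q below 38 Mb stayed between -0.13 and 0.14 in all 21 libraries.

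**Figure D1:**
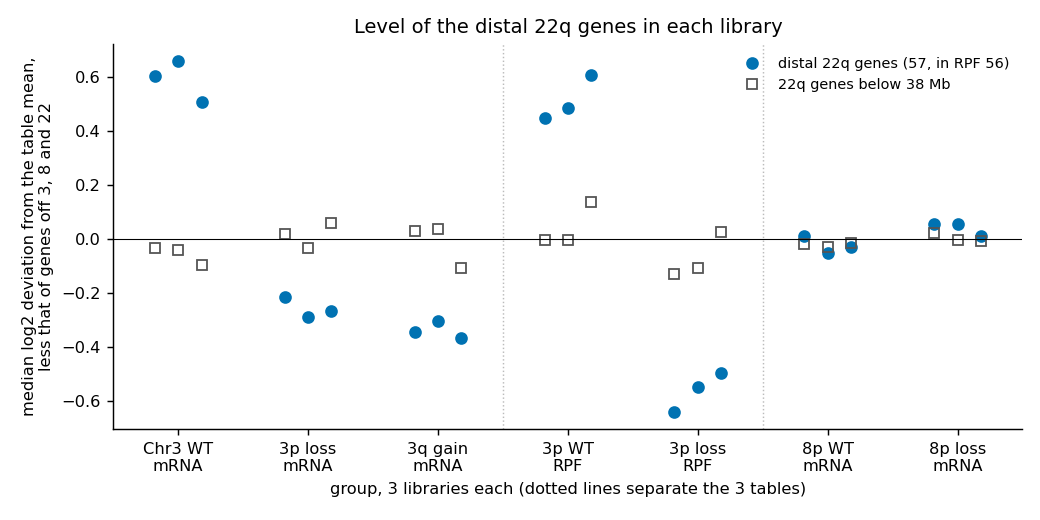
Median level of the distal 22q genes (filled circles) and of 22q genes below 38 Mb (open squares) in each of the 21 libraries, as log2 deviation from the mean of the library's own table, less that of genes off chromosomes 3, 8 and 22. The WT libraries of the chromosome 3 system stand between 0.45 and 0.66, the 3p loss and 3q gain libraries between -0.64 and -0.21, and the chromosome 8 libraries near 0.

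The chromosome 3 and chromosome 8 mRNA tables were normalized separately, so a level set across them is a description with no test. Against each gene's mean over the 6 chromosome 8 libraries, the members' median was -0.15 to -0.26 in the Chr3 WT libraries, -0.89 to -0.98 in 3p loss and -0.95 to -1.08 in 3q gain. Genes off chromosomes 3, 8 and 22 read -0.05 to -0.18 in all 9 libraries. On this scale the Chr3 WT libraries stood nearer to the chromosome 8 system than the altered libraries did. Whole chromosomes also differ between the systems, from -0.79 for chromosome 4 to 0.23 for chromosome 15 in Chr3 WT, after the median of those genes was taken off.

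Along the arm, low values were also measured before 40 Mb. The 35 tested genes from 36 Mb up to DMC1 (start at 38509147) had medians of -0.07 in 3p loss and -0.01 in 3q gain, while the 20 genes from CBY1 (start at 38656638) to 40 Mb had medians of -0.63 and -0.87. The first of these medians joins unlike windows, since the 8 genes from 36 to 37 Mb had medians of 0.84 and 0.52 and the 19 genes from 37 to 38 Mb had medians of -0.24 and -0.08. In RPF the genes from 37 to 38 Mb already had a median of -0.49, and those from 38 Mb up to DMC1 had -0.61. The limit at CBY1 was chosen after the values were seen. CBY1 stood at -1.13 and -1.07, where DDX17, an RNA helicase gene that starts at 38483438, stood at 0.10 and 0.16. The run of low genes is broken, since CBX6, a polycomb gene at 38861422, stood at 0.96 and 0.92. The genes just outside the list were ATF4, the effector of the integrated stress response (-1.53 in 3p loss and -1.49 in 3q gain), RPS19BP1 (-0.59 and -0.91) and FAM83F (-1.23 and -1.13). The genes just inside it were TNRC6B (-0.31 and -0.30), ADSL (-1.21 and -1.18) and SGSM3 (-0.93 and -0.80). The 28 other tested genes from 40 Mb on, which are no members, had medians of -0.73 and -0.82. Medians of windows from 40 Mb to the end ran from -0.70 to -1.05 in 3p loss and from -0.58 to -1.05 in 3q gain.

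**Figure D2:**
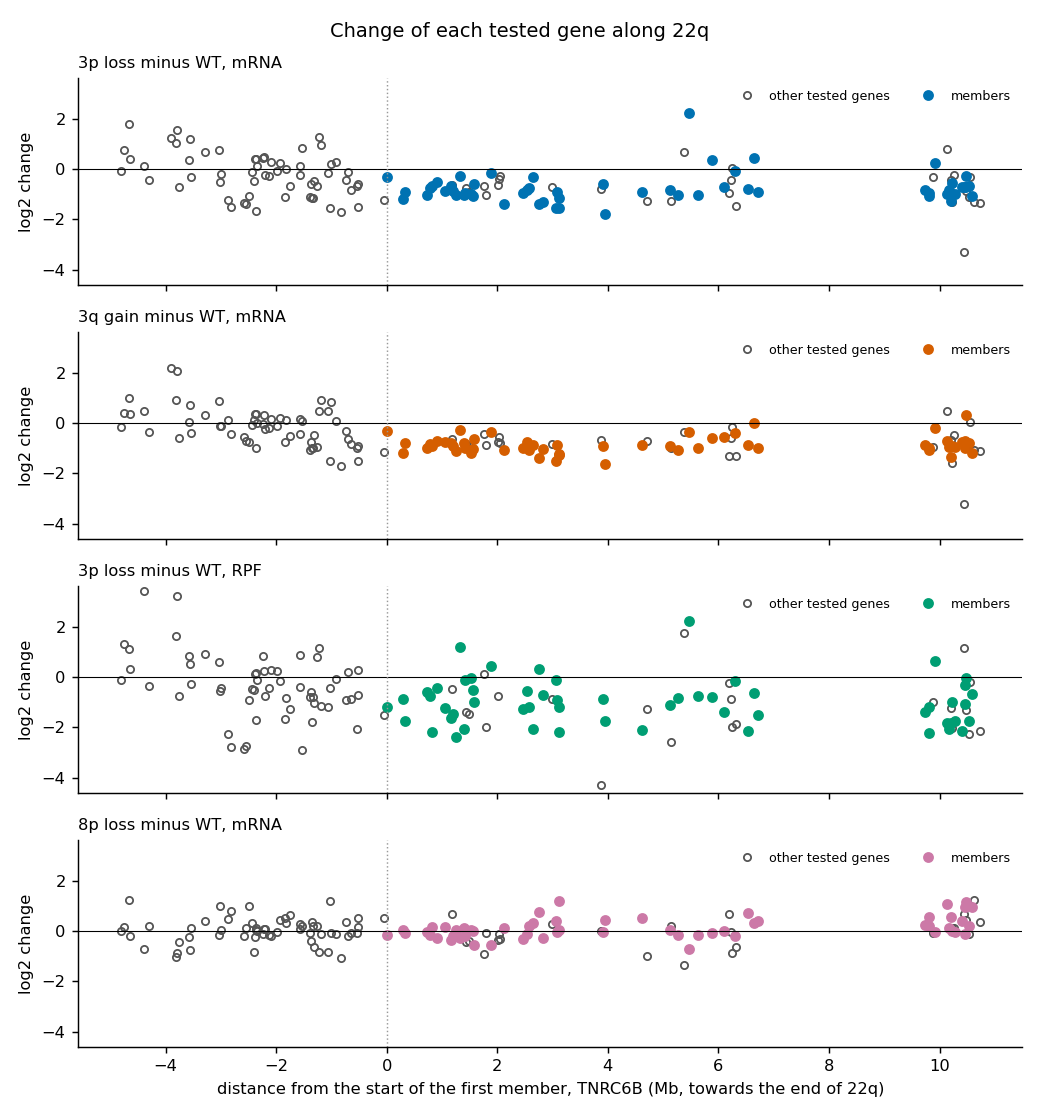
Log2 change of each tested gene of 22q by distance from the start of TNRC6B, the first member, in Mb. Filled points are the 57 members (56 in RPF) and open circles other tested genes. In the upper 3 panels most points right of the dotted line lie below 0, FBLN1 excepted at 2.22 in 3p loss mRNA and 2.21 in RPF, while the points of 8p loss lie around 0.

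Starts of members are rich in G and C. For 47 of the members the RefSeq promoter table (GRCh38.p14) holds the 250 bases before the start, and their median share of G and C was 72.8%, against 62.4% over 15843 protein-coding genes. The letters GGGCGG, a motif bound by SP-family factors, were found on either strand in 40 of these 47 (85.1%) and in 56% of all. The ETS-type letters CCGGAAG were found in 11 (23.4%, against 11.8%), the letters CCAAT in 16 (34.0%, against 34.5%) and the TATA-box letters TATAAA in 0 (against 9.23%). GC-rich starts hold GC-rich letters more often, and the members' share was not set against starts of equal GC. A pair of starts is shown because one gene of the pair, FBLN1, went against the rest of the stretch while the other, TSPO, was among the lowest. The windows are chr22:45502633-45502882 for FBLN1 and chr22:43151309-43151558 for TSPO, both on the plus strand, and capitals mark GGGCGG or its complement as found.
FBLN1: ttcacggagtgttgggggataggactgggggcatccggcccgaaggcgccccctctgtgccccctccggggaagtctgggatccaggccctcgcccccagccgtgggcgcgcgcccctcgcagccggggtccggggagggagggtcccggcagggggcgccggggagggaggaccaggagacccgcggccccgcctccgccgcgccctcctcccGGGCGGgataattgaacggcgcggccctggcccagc
TSPO: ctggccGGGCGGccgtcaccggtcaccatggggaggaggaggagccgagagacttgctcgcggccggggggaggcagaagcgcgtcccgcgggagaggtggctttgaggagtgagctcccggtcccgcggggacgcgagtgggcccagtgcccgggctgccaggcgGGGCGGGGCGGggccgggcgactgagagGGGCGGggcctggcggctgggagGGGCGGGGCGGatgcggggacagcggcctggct
A further stretch is shown because it lies between a pair of starts. ALG12 on the minus strand and CRELD2, a neighbour that is no member, on the plus strand start 195 bases apart, at chr22:49918439-49918633, and capitals mark CCAAT in either orientation, which occurs 3 times.
ALG12 and CRELD2: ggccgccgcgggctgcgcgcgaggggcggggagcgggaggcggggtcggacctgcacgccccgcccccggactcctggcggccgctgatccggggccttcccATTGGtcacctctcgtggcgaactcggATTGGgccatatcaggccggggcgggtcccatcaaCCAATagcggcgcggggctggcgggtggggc
ALG12, an ER mannosyltransferase, stood at -0.94 in 3p loss and -1.06 in 3q gain. CRELD2, an ER stress-inducible protein, stood at -0.30 and -0.97, so the values of this pair lay closer in 3q gain than in 3p loss. A match to these letters is not evidence that a factor binds there.

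The members of the DNA repair, chromosome and centrosome group were lower in mRNA by less than most, with a median of -0.66 in 3p loss and -0.68 in 3q gain over 4 genes. XRCC6 (41621295 to 41664041) read 558, 481 and 463 TPM in WT, 313, 368 and 309 in 3p loss, and 320, 301 and 340 in 3q gain. The WT libraries were higher than all 6 altered ones, and the changes were -0.60 ± 0.11 and -0.64 ± 0.11 (log2 ± SE, n = 3 per group). NCAPH2, a condensin II subunit gene, stood at -0.71 ± 0.14 and -0.72 ± 0.14. TUBGCP6, of the gamma-tubulin ring complex, stood at -0.82 ± 0.15 and -0.95 ± 0.15. CENPM, a kinetochore gene, read 54.9, 42.5 and 49.0 TPM in WT and 44.2, 47.7 and 38.8 in 3p loss, so its groups overlapped.

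Among the 6 genes of RNA processing and silencing, the medians were -0.90 and -0.87. PHF5A, a subunit of the SF3b splicing complex (41459717 to 41468692), read 76.7, 85.6 and 72.9 TPM in WT, 40.5, 38.1 and 41.1 in 3p loss, and 44.3, 34.1 and 38.8 in 3q gain. Its altered libraries lay at about the same level, with changes of -0.96 ± 0.13 and -0.99 ± 0.13. The ribosome biogenesis gene RRP7A (-0.96 ± 0.14 and -0.98 ± 0.14) and the RNA-binding zinc finger gene ZC3H7B (-1.03 ± 0.13 and -1.11 ± 0.13) were like it. TNRC6B, a scaffold of microRNA silencing, was at 4.27 to 5.72 TPM in WT and stood at -0.31 ± 0.22 and -0.30 ± 0.22. TRMU, which modifies mitochondrial tRNAs, read 20.8, 20.7 and 21.5 TPM in WT, 20.4, 20.5 and 19.1 in 3p loss and 14.8, 15.3 and 17.1 in 3q gain. It stood close to WT in 3p loss (-0.06 ± 0.12) and lower in 3q gain (-0.40 ± 0.12).

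The 7 chromatin and transcription genes had medians of -0.85 and -0.80. EP300 (41092592 to 41180077) read 31.5, 27.7 and 36 TPM in WT, 14.2, 19.8 and 17.1 in 3p loss, and 15.0, 21.8 and 19.1 in 3q gain, with no overlap of either with WT. The coregulator gene TCF20 had the lowest value of the group in 3p loss, -1.40 ± 0.16, and stood at -1.09 ± 0.16 in 3q gain. BRD1, a scaffold of a histone acetyltransferase complex, stood at -0.85 ± 0.14 and -0.89 ± 0.14, and PPARA, the nuclear receptor of fatty acid oxidation, at -0.70 ± 0.23 and -0.56 ± 0.23 from 4.49 to 5.62 TPM in WT. TEF, a bZIP factor of the circadian output, was near the floor of the scale at 2.90, 4.70 and 4.16 TPM in WT, and its groups overlapped.

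In the group of protein folding, ubiquitin and SUMO, and nuclear transport, all 5 genes were below 0 in both. ST13, an HSP70 cochaperone gene, read 193, 198 and 171 TPM in WT, 108, 115 and 108 in 3p loss, and 103, 105 and 103 in 3q gain. RANGAP1, the activator of the RAN GTPase that drives nuclear transport, stood at -0.88 ± 0.12 and -0.93 ± 0.12 from 152 to 181 TPM in WT. RBX1 was the exception in spread, since its WT libraries read 147, 110 and 71.9 TPM, and the lowest of them overlapped the 3p loss libraries at 67.3, 80.9 and 74.0.

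Among mitochondrial and peroxisomal genes, TSPO (43151559 to 43163242), a cholesterol-binding protein of the outer membrane, was the most abundant. It read 347, 358 and 319 TPM in WT, 128, 109 and 114 in 3p loss, and 151, 137 and 135 in 3q gain. These are changes of -1.54 ± 0.10 and -1.27 ± 0.10, lower than the stretch's medians in both lines. SAMM50, of the machinery that inserts outer membrane proteins, stood at -0.59 ± 0.11 and -0.90 ± 0.11, the peroxisomal carrier SLC25A17 at -1.03 ± 0.12 and -0.98 ± 0.12, and MCAT, of mitochondrial fatty acid synthesis, at -0.93 ± 0.15 and -0.88 ± 0.15.

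The 10 genes of metabolism and glycosylation were less uniform, from -1.21 to 0.46 in 3p loss. ADSL, an enzyme of purine synthesis (40346500 to 40387527), read 156, 146 and 142 TPM in WT and 56 to 68.9 in the 6 altered libraries. CYB5R3, a cytochrome b5 reductase gene, stood at -0.77 ± 0.13 and -1.05 ± 0.13, and ARSA, the lysosomal arylsulfatase A at the far end of the list, at -1.08 ± 0.33 and -1.18 ± 0.33. CERK, which encodes ceramide kinase, did not follow: it read 9.02, 13.0 and 9.61 TPM in WT, 11.7, 16.1 and 16.8 in 3p loss, and 7.96, 10.5 and 13.2 in 3q gain. The thymidine phosphorylase gene TYMP, at 2.07 to 4.76 TPM in WT, overlapped WT in both lines. A4GALT, the synthase of the glycolipid Gb3, stood at -0.30 ± 0.19 in 3p loss and -0.87 ± 0.19 in 3q gain.

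Membrane traffic, adhesion and cytoskeleton genes held both the lowest and the highest member in 3p loss, and the lowest in 3q gain. PARVB (43999211 to 44172939), a focal adhesion protein that binds integrin-linked kinase, read 56, 64.5 and 53.6 TPM in WT, 18.1, 16.5 and 13.3 in 3p loss, and 22.8, 20.4 and 12.9 in 3q gain. Its changes of -1.81 ± 0.21 and -1.61 ± 0.21 were the lowest of the 57 in both lines. ARFGAP3, a GTPase-activating protein of Golgi traffic, stood at -1.39 ± 0.18 in each line, and PACSIN2, a membrane-bending protein, at -1.30 ± 0.13 and -1.02 ± 0.13. FBLN1 (45502883 to 45601135), the extracellular matrix protein fibulin-1, read 13.8, 11.5 and 11.2 TPM in WT, 39.3, 39.7 and 137 in 3p loss, and 14.8, 3.35 and 15.0 in 3q gain. All 3 libraries of 3p loss were above WT, replicate 3 far above the others, while the 3q gain libraries spread around WT. The flanking member FAM118A (45308960 to 45341955) stood at -1.05 ± 0.16 in 3p loss, and ATXN10 (45671834 to 45845307), on the other side, at -1.03 ± 0.12.

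Signalling, growth and death genes had medians of -0.95 and -0.87 over 8 genes. BIK, which encodes a pro-apoptotic BH3-only protein, read 29.8, 24.5 and 27.8 TPM in WT, 10.8, 9.08 and 6.59 in 3p loss, and 9.69, 7.90 and 9.48 in 3q gain, changes of -1.55 ± 0.19 and -1.5 ± 0.19. MAPK12, the p38-gamma kinase, stood at -1.27 ± 0.30 and -1.35 ± 0.30. PIM3, a survival kinase gene, read 80.6, 53.2 and 63.4 TPM in WT, 81.1, 62.9 and 89.9 in 3p loss, and 59.8, 54.0 and 57.6 in 3q gain, and overlapped WT in both. WNT7B, a WNT ligand, read 6.34, 4.98 and 7.00 TPM in WT, 8.34, 11.1 and 5.31 in 3p loss and 3.61, 3.1 and 4.18 in 3q gain. It overlapped WT in 3p loss and lay under it in 3q gain.

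**Figure D3:**
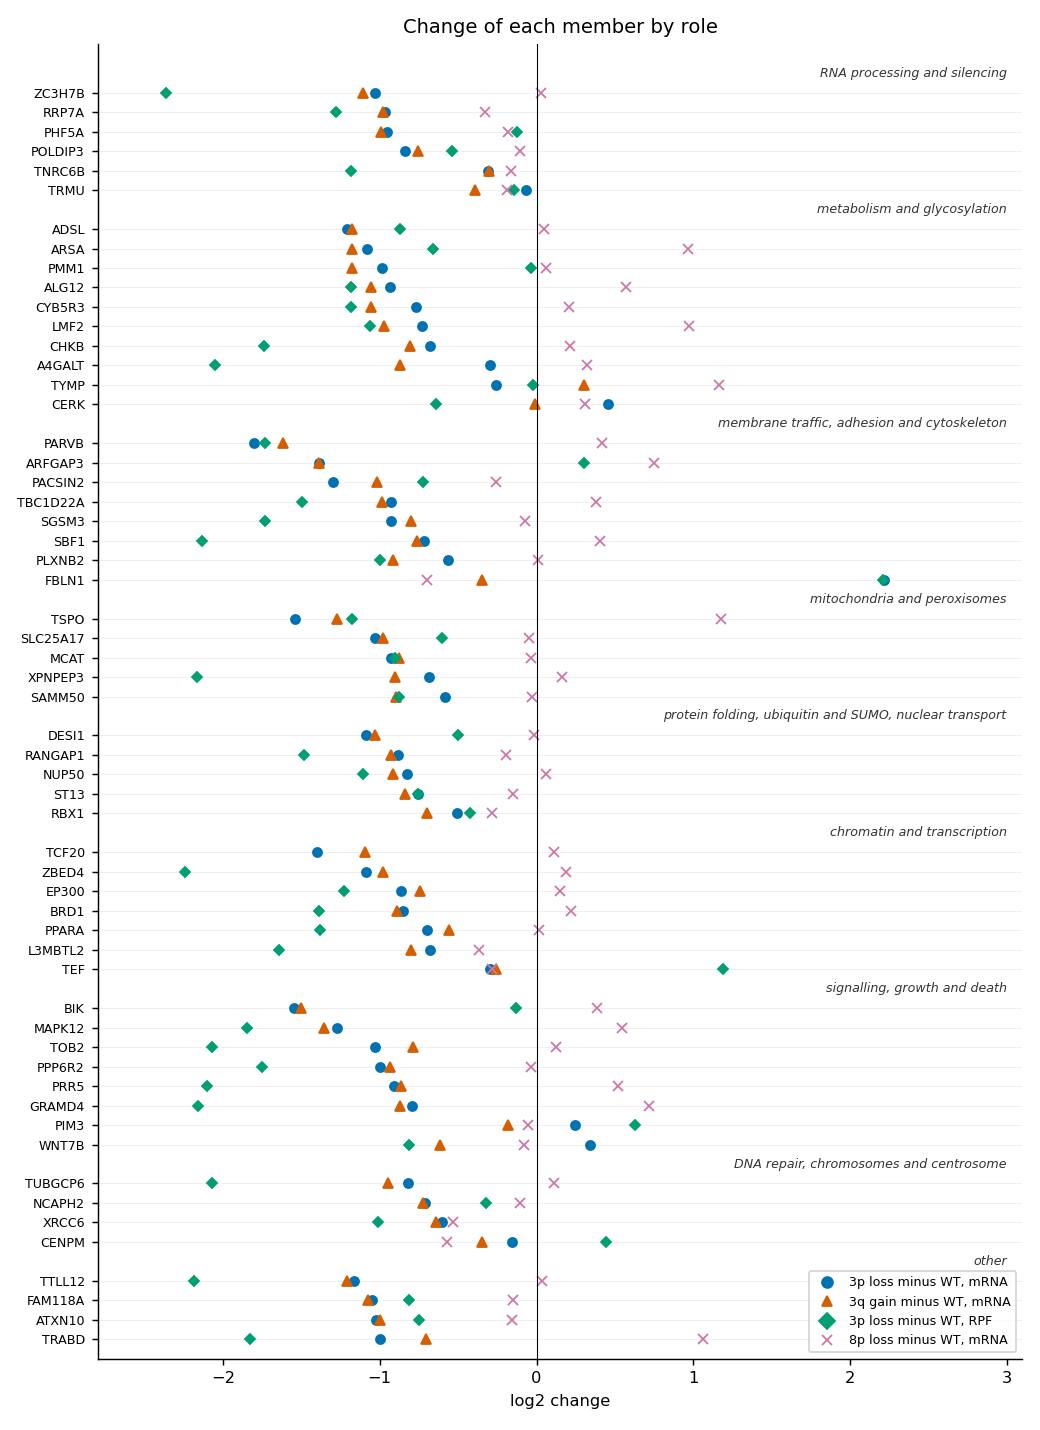
Log2 change of each of the 57 members, grouped by role and ordered within a role by the change in 3p loss mRNA. Circles are 3p loss and triangles 3q gain against WT in mRNA, diamonds 3p loss against WT in RPF (56 members), and crosses 8p loss against WT in mRNA; most circles and triangles lie near -0.86 and -0.90, diamonds spread from -2.36 to 2.21, and crosses lie from -0.70 to 1.18.

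The altered lines were compared with each other. Both are among the libraries in which the stretch was noticed, and its members were low in both. The members' median and counts here are therefore not independent of their choice. The median difference of 3p loss minus 3q gain was 0.04 over the 57 members, with quartiles of -0.05 and 0.13, and -0.01 over all genes. Limma called 1 member higher in 3p loss, where it called 0.873% of all genes higher, and 0 lower, where it called 3.06% lower. At an unadjusted p under 0.05 there were 9. The share of all genes at that threshold was not counted, so nothing is read from this number. The member called was FBLN1, at 2.56 ± 0.57 (limma adjusted p = 0.0373). That call ended in fits without a filter, without the trend, or of the 2 groups alone, with limma adjusted p-values of 0.0728, 0.0535 and 0.0808, and without any of 5 of the 6 libraries, with values of 0.0596 to 0.0948. The next largest differences were 0.96 ± 0.25 for WNT7B (limma adjusted p = 0.0734) and 0.57 ± 0.19 for A4GALT (limma adjusted p = 0.162). A p that misses the threshold does not show that the lines were alike at these genes.

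Footprints of the stretch were lower in 3p loss than in 3p WT cells. RPF came from other libraries and another assay than the chromosome 3 mRNA, but again from 3p loss cells. The RPF controls, labelled 3p WT, were taken as WT of the same system as Chr3 WT. Whether RPF values also led to the choice of the members is not known. Over the 56 members that passed the count filter, the median change was -1.08 (0.472-fold, quartiles -1.74 and -0.59), against a median of 0.02 over all 11425 genes. EdgeR's quasi-likelihood test called 46 members lower, where it called 34.2% of all genes lower, and 4 higher, where it called 35.1% higher. The libraries of 3p loss lay below all of WT for 45 members, where 30.4% of all genes did so. The 324 tested 3p genes had a median of -1.01 in the same fit. With replicates 1 and 2 summed, 47 members were called in either direction, against 50.

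The largest footprint fall was that of ZC3H7B, from 323, 327 and 379 CPM (counts scaled to the library's total) in WT to 55, 64.8 and 96.9 in 3p loss. This is -2.36 ± 0.17 (edgeR adjusted p = 1.16e-07). It was followed by ZBED4, a zinc finger gene (-2.24 ± 0.17), the tubulin ligase family gene TTLL12 (-2.18 ± 0.11), the mitochondrial aminopeptidase gene XPNPEP3 (-2.17 ± 0.12) and GRAMD4 (-2.16 ± 0.23), with edgeR adjusted p-values of 8.73e-09 to 3.33e-06. SBF1, a myotubularin-related gene, fell from 594, 622 and 740 CPM to 131, 142 and 216 (-2.13 ± 0.16, edgeR adjusted p = 2.05e-07). PRR5, of the mTOR complex 2, and TOB2, an antiproliferative gene, fell by 2.10 and 2.07 on the log2 scale.

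Members of other roles fell as well. XRCC6 went from 424, 430 and 388 CPM to 235, 228 and 217, with no overlap (-1.01 ± 0.09, edgeR adjusted p = 5.98e-07). EP300 changed by -1.23 ± 0.10, RANGAP1 by -1.48 ± 0.09, PARVB by -1.74 ± 0.14, TSPO by -1.18 ± 0.15 and SAMM50 by -0.88 ± 0.10, each called by edgeR with an adjusted p of 2.14e-05 or less. RBX1, whose mRNA groups overlapped, fell in footprints from 60.6, 54.4 and 59.2 CPM to 49.4, 50.3 and 44.4 (-0.42 ± 0.12, edgeR adjusted p = 0.00594). CERK, whose mRNA was not lower, fell in footprints as well, from 27.8, 31.0 and 32.9 CPM to 20.2, 19.9 and 24.1 (-0.64 ± 0.14, edgeR adjusted p = 0.00132).

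Footprints of 4 members rose. FBLN1 went from 11.1, 11.6 and 12.7 CPM in WT to 59.2, 58.9 and 62.7 in 3p loss (2.21 ± 0.13, edgeR adjusted p = 2.71e-08), and its RPF libraries were tight where its mRNA libraries were not. TEF rose from 1.76, 1.43 and 1.41 CPM to 3.92, 3.66 and 4.06 (1.19 ± 0.31, edgeR adjusted p = 0.00421). That rise rests on few reads, with raw counts of 14, 8 and 12 in WT and 18, 20 and 55 in 3p loss. PIM3 rose from 38.7, 40.7 and 50.6 CPM to 72.2, 64.1 and 84.2 (0.63 ± 0.14, edgeR adjusted p = 0.00145). CENPM rose by 0.44 ± 0.18 (edgeR adjusted p = 0.0436), and that call ended in 6 of 11 alternatives, with edgeR adjusted p-values of up to 0.209. With replicates 1 and 2 summed, CENPM rose by 0.46 (edgeR adjusted p = 0.0698). The 6 members called in neither direction were ARFGAP3, BIK, PHF5A, PMM1, TRMU and TYMP. The remaining member, TCF20, was listed at 0 in all 6 RPF libraries and did not pass the filter, although its mRNA read 33.3, 29.3 and 41.5 TPM in WT. NDUFA6 and SMDT1, of the same band of 22q but no members, were listed at 0 there too, so no fold is given.

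Translational efficiency, here the RPF change minus the mRNA change, was compared to ask whether footprints moved as mRNA did. Its mRNA part is the contrast in which the stretch was noticed, so the members' differences are described with no test. Their median was -0.16, against 0.13 over all 10224 genes, with 24 of 56 members above 0 and 32 below.

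The largest positive difference was that of ARFGAP3, whose mRNA read 30.3, 34.7 and 28.4 TPM in WT and 8.56, 12.1 and 13.6 in 3p loss. Its footprints read 19.3, 19.4 and 21.8 CPM in WT and 24.6, 30 and 27.6 in 3p loss. The 3 footprint libraries of 3p loss were above WT, though edgeR did not call that change (0.30 ± 0.14, adjusted p = 0.0764), and the difference between the assays was 1.81 ± 0.24. BIK followed at 1.57 ± 0.27, with footprints of 9.57, 12.0 and 12.6 CPM in WT and 11.5, 12.8 and 10.3 in 3p loss, which overlap. TEF had 1.24 ± 0.31, the phosphomannomutase gene PMM1 1.10 ± 0.24 and PHF5A 0.97 ± 0.19. The largest negative difference was that of A4GALT, with mRNA of 40.7, 42 and 38 TPM in WT and 33.7, 29.0 and 35.1 in 3p loss. Its footprints went from 49.2, 55.6 and 60.8 CPM to 15.2, 12.6 and 15.8, a difference of -1.56 ± 0.19. SBF1 (-1.31 ± 0.26), XPNPEP3 (-1.29 ± 0.23), ZC3H7B (-1.24 ± 0.25) and GRAMD4 (-1.23 ± 0.32) were next. PARVB (0.25 ± 0.21), EP300 (-0.23 ± 0.20), SAMM50 (-0.14 ± 0.14) and FBLN1 (0.04 ± 0.49) stood nearer to 0. Across the 56 members the RPF and mRNA changes had Pearson r = 0.52 and Spearman rho = 0.24, and without FBLN1 r = 0.30 and rho = 0.20, as a description over genes that share the same libraries. The SD among members was 0.59 in mRNA and 0.92 in RPF.

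**Figure D4:**
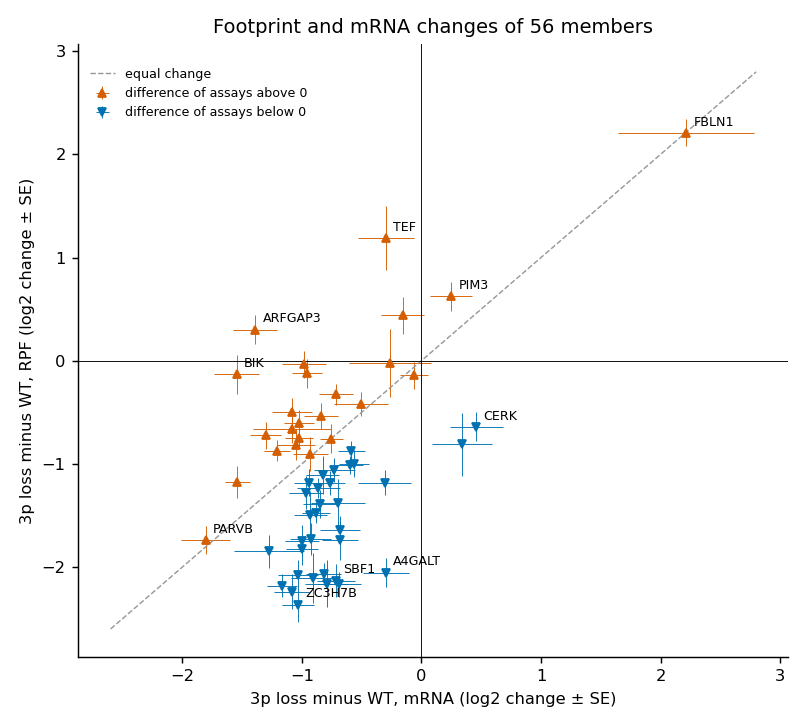
RPF change (edgeR, ± SE) against mRNA change (limma, ± SE) in 3p loss minus WT for 56 members, with the dashed line marking equal change. Upward triangles are the 24 members whose fitted difference of RPF minus mRNA change was above 0 and downward triangles the 32 below 0, and FBLN1 stands alone at the upper right.

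In the chromosome 8 system the stretch as a whole stood near WT. The median change of 8p loss minus 8p WT over the 57 members was 0.03, with quartiles of -0.15 and 0.32, against -0.01 over all 12302 genes. Limma called 22 members higher and 15 lower, where it called 33.1% of all genes higher and 36% lower, so the counts lie near the background. Most changes were small, and 44 of the 57 were within 0.5 of 0. The quartiles over all genes were -0.32 and 0.28, so most genes lay within 0.5 of 0 as well. In 3p loss mRNA 9 members did, but the stretch was noticed on those values, so the counts are not compared.

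Most members were low in the chromosome 3 lines, so no opposite pattern is read from the members that rose most in 8p loss. TSPO read 97.0, 72.2 and 62.1 TPM in 8p WT and 204, 199 and 126 in 8p loss (1.18 ± 0.23, limma adjusted p = 0.00298). TYMP rose from 5.48, 4.32 and 4.64 TPM to 13.7, 15.3 and 8.07 (1.16 ± 0.22, limma adjusted p = 0.00262). TRABD rose by 1.06 ± 0.19, the lipase maturation factor gene LMF2 by 0.97 ± 0.15, ARSA by 0.97 ± 0.13 and ARFGAP3 by 0.75 ± 0.04, with limma adjusted p-values of 6.2e-06 to 0.00191. TYMP, TRABD, LMF2 and ARSA lie within the last stretch of the arm, and from 48 Mb on the median of all tested genes, members or not, was 0.29. The genes from 38 Mb up to DMC1 had the same median of 0.29, while windows between CBY1 and 48 Mb had medians of -0.19 to 0.16. The windows were chosen after values were seen.

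The members that fell most in 8p loss were FBLN1, from 38.4, 39.7 and 38.5 TPM to 22.6, 24.3 and 23.9 (-0.70 ± 0.04, limma adjusted p = 9.33e-06), and CENPM, from 46.9, 42.6 and 38.5 to 27.1, 30.2 and 27.7 TPM (-0.57 ± 0.08, limma adjusted p = 0.000535). XRCC6 fell from 510.0, 521 and 501 TPM to 349, 344 and 362 (-0.54 ± 0.03, limma adjusted p = 7.85e-06). Its 8p loss level lay near that in the 3p loss libraries of the other system, a comparison across separately normalized tables. The polycomb-related gene L3MBTL2, RRP7A, TEF, RBX1 and PACSIN2 fell by 0.37, 0.33, 0.28, 0.28 and 0.26 on the log2 scale.

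**Figure D5:**
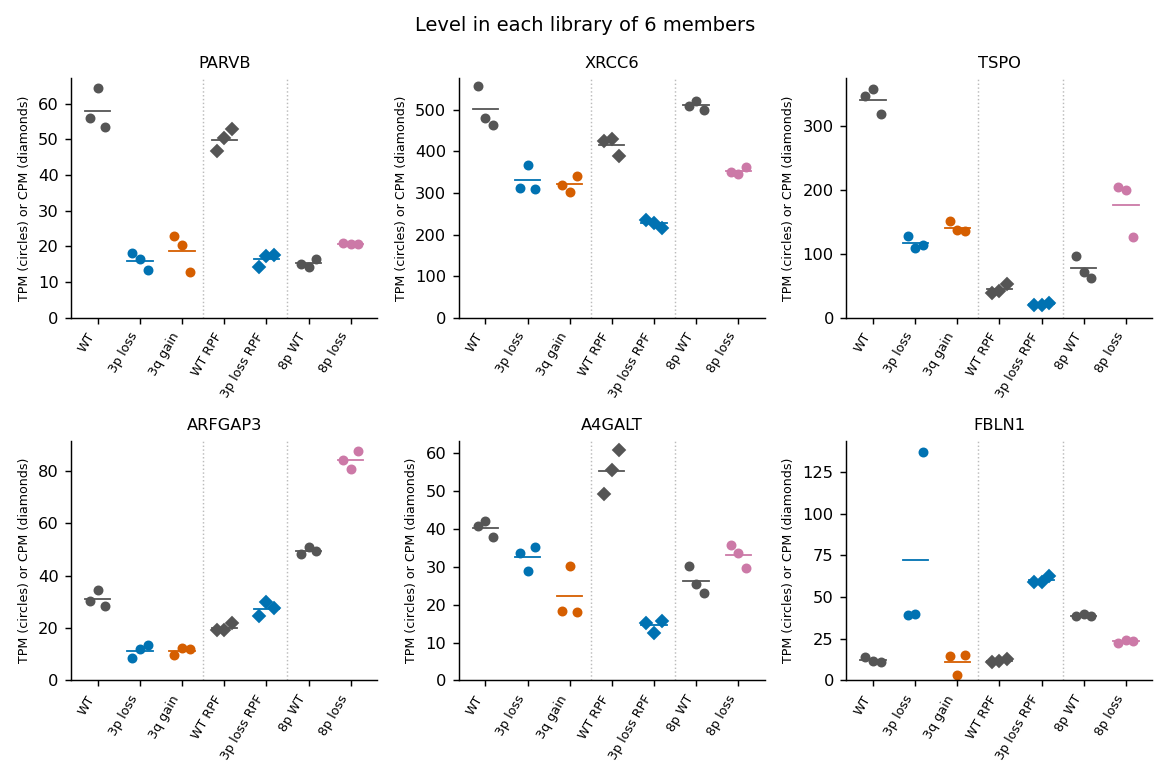
Level of PARVB, XRCC6, TSPO, ARFGAP3, A4GALT and FBLN1 in every library, in TPM for mRNA (circles) and CPM for RPF (diamonds), with a bar at each group's mean; dotted lines separate the 3 tables and axes start at 0. FBLN1 is highest in 3p loss, the ARFGAP3 libraries of 3p loss lie below WT in mRNA and above it in RPF, and TSPO is lower in the altered chromosome 3 libraries and higher in 8p loss.

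Of 33 genes listed because their products join complexes with products of members, 32 lie off chromosomes 3, 8 and 22. The chromosome 3 table lists 31 of them under the names used, without SF3B6, and all 31 passed its filter. In 3p loss mRNA limma called 2 higher and 3 lower, where it called 15% of all genes in either direction, and in 3q gain 1 higher, where it called 5.27%. XRCC5, which encodes Ku80, the partner of XRCC6, read 331, 287 and 288 TPM in WT and 336, 373 and 338 in 3p loss (0.21 ± 0.21, limma adjusted p = 0.53). Its footprints fell in 3p loss by 0.45 on the log2 scale (edgeR adjusted p = 0.000154), and its mRNA fell in 8p loss by 0.53 (limma adjusted p = 1.0e-05), beside -1.01 and -0.54 for XRCC6 in those contrasts. Partners of RBX1 differed among themselves. The adaptor gene SKP1 rose in 3p loss (0.61 ± 0.10, limma adjusted p = 0.0044) and in 3q gain (0.48 ± 0.10, limma adjusted p = 0.0286), and the cullin gene CUL1 fell in 3p loss (-1.0 ± 0.27, limma adjusted p = 0.0365), a call that ended with any 1 of the 6 libraries left out (limma adjusted p = 0.0551 to 0.105), without a filter and with median centring. CUL3 and DDB1 had 0.24 ± 0.23 and 0.21 ± 0.14 and were not called.

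The other partners called in 3p loss mRNA were NCAPG2, of condensin II (-0.80 ± 0.19, limma adjusted p = 0.0213), DDX42, a helicase of the SF3b complex (-0.64 ± 0.16, limma adjusted p = 0.0276), and the SF3b subunit gene SF3B3 (0.43 ± 0.10, limma adjusted p = 0.0195). CUL1 and NCAPG2 both lie on chromosome 7 and were alike by library. In 3q gain CUL1 read 64.4, 30.5 and 27.3 TPM, where WT stood at 58.7 to 70.9. NCAPG2 read 63.2, 38.7 and 36.7 there, where WT stood at 63.5 to 69.8. Replicate 1 was near the WT level and the others were not. Another listed partner on chromosome 7, CHCHD3, read 116, 73.1 and 66.2 TPM in 3q gain, where WT stood at 101 to 135. In 3p loss CHCHD3 read 128, 72.3 and 159 TPM, unlike CUL1 and NCAPG2, whose 3p loss libraries all lay below WT. Limma called 1 to 4 partners with single libraries left out, against 5, and 1 without Chr3 WT replicate 3 or without 3p loss replicate 1. The calls of NCAPG2, DDX42 and SF3B3 held with 1, 2 and 3 of the 6 libraries left out in turn, and that of SKP1 in 3q gain with 1 of 6. In RPF edgeR called 9 of 31 partners higher and 18 lower, where it called 35.1% of all genes higher and 34.2% lower, with CUL4A the lowest (-1.64 ± 0.10, edgeR adjusted p = 2.61e-08) and CHCHD3, of the mitochondrial contact site complex with SAMM50, the highest (1.38 ± 0.14, edgeR adjusted p = 2.65e-06). In 8p loss limma called 3 of 32 partners higher and 22 lower, where it called 33.1% and 36% of all genes. There the condensin II genes NCAPD3 and NCAPG2 fell by 0.91 and 0.81 on the log2 scale, and CREBBP, the paralog of EP300, rose by 0.33 (limma adjusted p = 0.000706).

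Some member values may include reads of other genes. The annotated extents of 17 of the 57 members overlap another protein-coding gene, ALG12 and ZBED4 by 30770 bases and ADSL and SGSM3 by 16934, and how the authors' counting treated shared stretches or strand is not given in the sources used here.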

How the data were processed

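The mRNA tables hold levels in TPM as deposited by the authors, already divided by transcript length and library size. The tables name no unit, and TPM was inferred from column sums of 861114 to 916783 over protein-coding genes, so FPKM could look alike and sequencing depth is unknown. For RPF the authors deposited raw counts per gene. Of its entries, 1061 carry a transcript's name instead of a gene's. They held 0.432 to 0.568% of the counts and were left out. Alignment was to GRCh38, per the submitters' processing notes, and the aligner, counter and annotation are not given in the sources used here. Replicates are biological per the labels. No column of per-sample values was set aside. Gene positions came from a RefSeq gene table.

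Changes in mRNA were estimated by limma 3.58.1 under R 4.3.3, using log2(TPM + 1), a trended prior variance and a filter at an average of 1 TPM. One fit held the 9 chromosome 3 libraries and another the 6 chromosome 8 libraries. This scale understates fold changes of low genes. RPF counts went to edgeR 4.0.16 (quasi-likelihood, TMM, filterByExpr). Translational efficiency was the assay-by-genotype interaction in a limma fit of 12 libraries, described with no test for members. That fit took 3p WT and Chr3 WT as the same genotype, which the labels do not state. A call is a Benjamini-Hochberg adjusted p under 0.05 over all genes tested. The fits were tested on simulated data with 200 genes changed. Alternatives were DESeq2 1.42.0 and other pseudocounts, filters, scalings and designs, and each library left out.

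The text names the 2 most abundant members per role, the extreme changes per contrast, genes beside 40 Mb, the called members (up to 8 per direction) and the called partners (up to 4). Others, such as RBX1, TRMU, SAMM50, CBY1, DDX17, CBX6, CRELD2 and XRCC5, were added after their values were seen. The members, roles and lists were chosen with earlier results of these data known. Deviations from group means of same-numbered libraries correlated at 0.12 to 0.16 in all 3 pairs of 3p loss and 3q gain. These met the pairing rule used (every pair over 0.1). Libraries of unlike number were not correlated, so this does not show that the numbers pair these groups. In every other comparison at least 1 pair was at 0.1 or below, and the labels give no shared batch.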

Additional observations from a re-analysis of the deposited data

Results flagged for a closer look

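FBLN1 was set apart by a test of the difference between the altered lines: its mRNA was 2.56 (log2) higher in 3p loss than in 3q gain (limma adjusted p = 0.0373), the 1 member called in that contrast. The libraries compared are among those in which the stretch was noticed. The difference rests on a spread of 39.3 to 137 TPM in 3p loss and of 3.35 to 15.0 TPM in 3q gain. Without 3p loss replicate 3 the difference was 1.97, and without 3q gain replicate 2 it was 1.94, neither of them called (limma adjusted p = 0.0858 and 0.0948). Its RPF in 3p loss was measured in other libraries and did not spread in this way. There, the lowest and highest library read 58.9 and 62.7 CPM.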

How the results depend on the processing

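Of 74 single-gene results with a threshold, 63 kept their call in every alternative run, and none of the 941 alternatives reversed a direction. These 74 were picked because they were called, with the largest changes first, so few lost calls and no reversal were likely from the start. They are no measure of how stable the other results are. The 74 include members' translational efficiency, which is otherwise described with no test, and FBLN1 between the altered lines. Both rest on chromosome 3 mRNA values. The members' median in 3p loss mRNA, -0.86 as reported, was -0.90 with a pseudocount of 0.1, -0.93 when the filter was raised to 10 TPM and -0.78 with median centring, and ran from -0.89 to -0.80 with single libraries left out. That in 3q gain, -0.90 as reported, was -0.94 with a pseudocount of 0.1 and again -0.94 with that filter, and the median of 3p loss minus 3q gain was 0.10 with median centring. In RPF it ran from -1.19 (without 3p loss replicate 3) to -1.04. The single member called between the lines became 0 with no filter, without the trend and with groups compared alone, and 0 to 1 with libraries left out. Partners called in 3p loss, 5 as reported, were 3 with groups alone and 1 to 4 with libraries left out, and in 3q gain, 1 as reported, 0 with median centring, without the trend and with groups alone, and 0 to 2 with libraries left out. Members past limma's threshold in translational efficiency, a count that the choice of members touches, ran from 19 (without 3p WT RPF replicate 1) to 29 with libraries left out. In the main fit 13 were higher and 17 lower. The share of all genes past that threshold is not given, so nothing is read from these counts. The replicate block met the pairing rule in 3p loss against 3q gain alone. It gave 1 call between the lines, 50 in the RPF fit and 38 for 8p loss, against 1, 50 and 37. It ended the call of CUL1 in 3p loss (limma adjusted p = 0.0606). Where a result moved, the cause was not tested. Low members such as TEF and TYMP are limited by depth in RPF and by the pseudocount in mRNA.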
